A study of Drosophila melanogaster with 6 samples.

Results

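The genes described here encode the enzymes that start mucin-type O-glycosylation and make its first extension in Drosophila melanogaster. They are 9 polypeptide GalNAc transferases (Pgant2, Pgant3, Pgant4, Pgant5, Pgant6, Pgant7, Pgant8, Pgant9 and Pgant35A) and the core 1 galactosyltransferase C1GalTA. Members were chosen by gene name among probe sets annotated to exactly 1 gene. All 10 had such a probe set, 13 probe sets in all, out of 11982 genes and 18769 probe sets tested.

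Whole embryos of stages 11 to 16 were profiled on Affymetrix 3' arrays. In 3 samples, the tub-Gal4 driver, which acts in most cells, expressed a UAS-Sage transgene, and 3 age-matched samples of the tub-Gal4 strain without that transgene were the controls. The driver is thus shared by both groups. Sage is a helix-loop-helix protein that regulates transcription in the salivary gland of the embryo, and the design asked which transcripts changed when it was present in the entire embryo. Nothing in the labels says that samples of a group were separate collections, so the p-values may not measure the spread between collections. The control arrays differ widely, as given below, and the source of that spread was not tested. With whole embryos, fewer cells of a type and less RNA per cell cannot be told apart.

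Polypeptide GalNAc transferases work in the Golgi, where each moves N-acetylgalactosamine from UDP-GalNAc to a serine or threonine of a secreted or membrane protein. Some act on bare peptides and others on peptides that already carry a sugar, so that family members can work in sequence along a mucin domain. C1GalTA then adds galactose, which gives the core 1 disaccharide known as T antigen, the most common O-glycan of the fly embryo. Heavily O-glycosylated proteins line the lumen of embryonic tubes, the salivary gland among them, and make up the glue that the larval gland secretes.

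With Sage, 2 of the 10 genes rose, Pgant6 and Pgant5, and none fell (limma, adjusted p under 0.05 over all probe sets). The share of all genes called was 5.6% higher and 12.2% lower, each gene taken by its brightest probe set. In 4 genes (Pgant2, Pgant3, Pgant5 and Pgant6) every Sage array lay above every control array, and in none did every Sage array lie below. Over all genes those shares were 19.9% and 21.0%. The log2 differences, Sage minus control, had a median of 0.45 over the 10 genes and 0.01 over all genes, and 8 of 10 were positive, against 52.0% of all genes. An unadjusted p under 0.05 was reached upward by 4 of the 10 and downward by none, against 15.1% and 18.2% of all genes. None of the 10 genes was below all array medians in both groups, against 3733 of all 11982 genes. The all-gene shares thus include many dim genes. Among probe sets with a mean of at least 6 in either group, 783 of 9177 were higher and 1785 lower. Of the 10 genes, 9 remained under that filter, with 3 higher and none lower. Pgant8 remained by its Sage mean alone (6.88, against 5.91 in the controls).

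The sage transcript, which checks the labels, had log2 signals of 12.39, 12.53 and 12.50 with Sage, against 7.38, 7.50 and 7.66 in the controls. Array medians lay between 5.56 and 5.74 log2 units. The control arrays differed among themselves more than the Sage arrays, as late embryonic genes show. For 10 measured genes of late cuticle, of 18 listed, the median log2 signal was 11.11, 10.93 and 11.36 in Sage replicates 1, 2 and 3, against 10.15, 8.71 and 6.53 in control replicates 1, 2 and 3. Egg and maternal transcripts, 11 measured of 13 listed, had medians of 5.23 to 5.68 with Sage, against 9.48 to 9.93 in the controls. Probe sets for hybridisation controls were also higher on the Sage arrays, by 0.37 (Cre) to 1.36 (BioB) log2 units. The log2 gap between 3' and 5' probe sets of 1 transcript was larger there too, by 0.43 (eIF4A) to 0.99 (actin), with no overlap of groups in any of these measures. For every result given here, the counts above included, the handling of the arrays cannot be told apart from the group. Medians of the late cuticle and egg lists did not overlap between groups either, although the samples are described as age-matched. The part of embryo stage in any of the results was not tested.

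Pgant6, a GalNAc transferase gene measured by probe set 1636337_s_at, had log2 signals of 11.12, 11.36 and 11.12 in Sage replicates 1, 2 and 3, against 9.85, 10.22 and 10.08 in control replicates 1, 2 and 3. Every Sage array exceeded the brightest control array by more than the control arrays were apart. The means were 11.20 ± 0.14 with Sage and 10.05 ± 0.19 in the controls (SD, n = 3 each), and the log2 difference was 1.15 (SE 0.13), which is 2.22-fold (adjusted p = 0.00373 by limma). It was seen in 3 of 3 arrays. It passed with each of the 6 arrays left out in turn and under every other alternative tried. The suffix of this probe set marks probes that can match more than 1 transcript, so related transcripts may add to its signal.

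Pgant5, a transferase gene that is needed for viability and for acid secretion in the larval gut, had log2 signals of 10.19, 10.28 and 10.21 with Sage, against 9.35, 9.72 and 9.55 in the controls. The groups did not overlap, and the Sage arrays lay close together. The means were 10.23 ± 0.05 with Sage and 9.54 ± 0.19 in the controls (SD, n = 3 each), a log2 difference of 0.69 (SE 0.11), or 1.61-fold, with an adjusted p of 0.0132 by limma. Without Sage replicate 1, 2 or 3 it no longer passed (adjusted p = 0.0502, 0.0586 and 0.0659 by limma), although the log2 difference was then 0.71, 0.66 and 0.69. So 1 of the 10 genes, in place of 2, was called higher in each of those fits. Over all 18769 probe sets, 446, 369 and 266 were called higher in them, in place of 797.

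**Figure D1:**
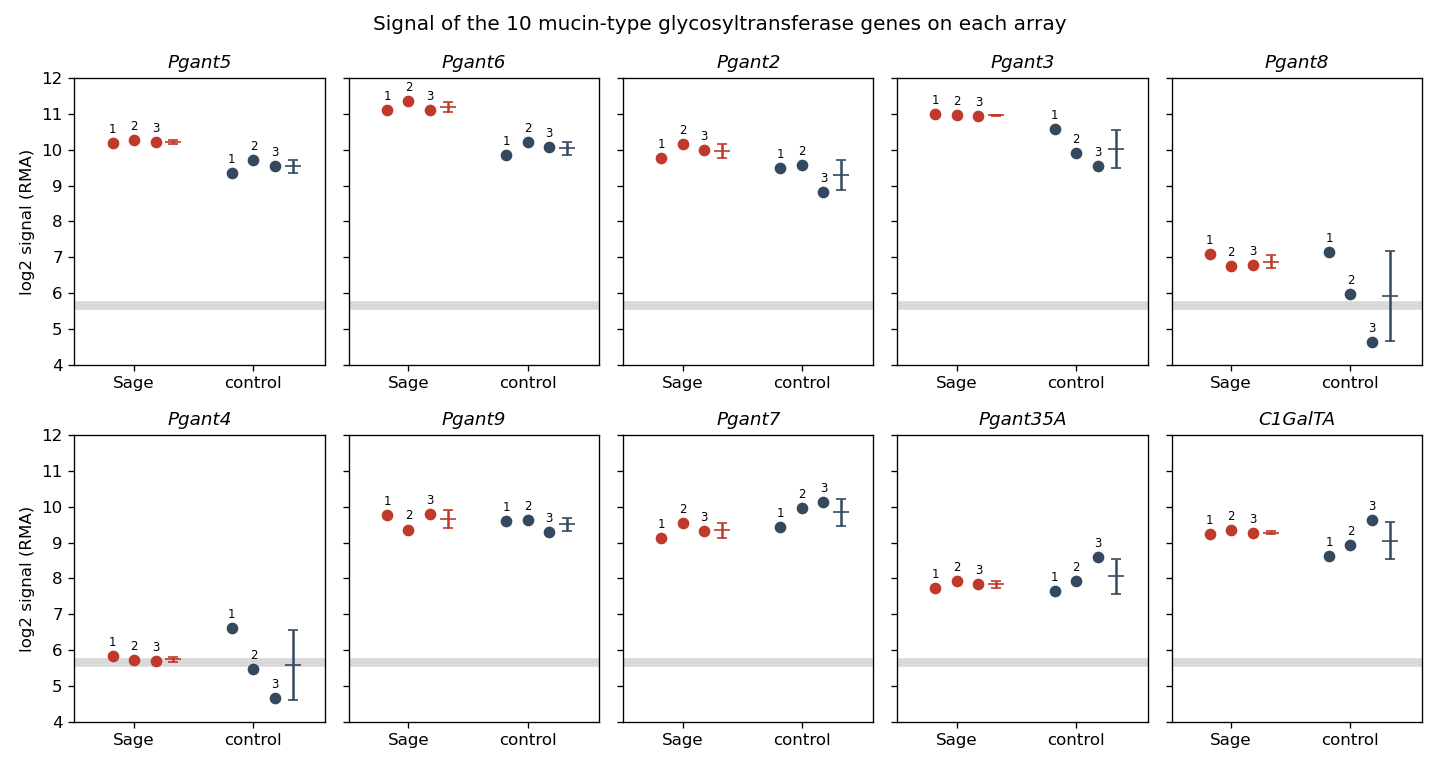
Each panel is 1 gene by its brightest probe set, with the log2 signal on the y axis, 3 Sage arrays on the left (red) and 3 control arrays on the right (dark). Numbers are replicates, bars are the mean ± SD, and the grey band is the range of array medians (5.56 to 5.74). Pgant5 and Pgant6 show separate groups with close replicates, whereas the controls of Pgant8 and Pgant4 are spread over 2.51 and 1.94 log2 units. Levels are not comparable between genes, which have different probes.

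Pgant3 and Pgant2 were higher on every Sage array but did not pass. Pgant3, whose product modifies the integrin ligand Tiggrin and is needed for cell adhesion in the wing, had log2 signals of 10.99, 10.96 and 10.96 with Sage, against 10.59, 9.92 and 9.55 in control replicates 1, 2 and 3. The Sage arrays were nearly equal and control replicate 3 was furthest from them. Its log2 difference was 0.95 (SE 0.26, adjusted p = 0.066 by limma), and without control replicate 1 it passed (1.24, adjusted p = 0.00645 by limma). With dim probe sets left out, at a group mean of at least 6 or 7, it also passed (adjusted p = 0.0439 and 0.0408 by limma).

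Pgant2, another peptide transferase gene, had log2 signals of 9.77, 10.16 and 10.01 with Sage, against 9.50, 9.58 and 8.83 in the controls. The gap between the lowest Sage array and the highest control array was smaller than the spread of either group. Its log2 difference was 0.68 (SE 0.23, adjusted p = 0.119 by limma), and 0.44 without control replicate 3 (adjusted p = 0.0921). A second probe set for Pgant2, 1639881_at, was below the array medians in both groups (4.78 with Sage and 4.71 in the controls) and differed by 0.06.

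The other transferase genes overlapped between groups. Pgant8 had log2 signals of 7.09, 6.76 and 6.77 with Sage, against 7.13, 5.96 and 4.63 in control replicates 1, 2 and 3. Control replicate 1 was thus above every Sage array and control replicate 3 was below the array medians. Its log2 difference of 0.97 had a 95% confidence interval of -0.52 to 2.45 (adjusted p = 0.384 by limma), and it was 1.58 without control replicate 1 (adjusted p = 0.0521) and 0.33 without control replicate 3 (adjusted p = 0.633). Pgant4, which protects the secretory protein Tango1 from cleavage and is needed for secretion in the gut, had log2 signals of 5.83, 5.71 and 5.68 with Sage, against 6.61, 5.48 and 4.67 in the controls. On the Sage arrays Pgant4 was thus close to the array medians, and in control replicates 2 and 3 it was below them. Its log2 difference was 0.16 (95% confidence interval -0.99 to 1.30, adjusted p = 0.886 by limma), and it was 0.67 without control replicate 1 and -0.30 without control replicate 3. Both intervals are too wide to tell a change from none. Gut genes, 6 measured of 7 listed and 2 of them also in the mucin list given later, had median log2 signals of 6.39 to 7.19 with Sage, against 5.21 to 7.22 in the controls, and their part in the result for Pgant4 was not tested.

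Pgant9 acts in the larval salivary gland, where its products glycosylate the glue mucin Sgs3 and shape secretory granules. It had log2 signals of 9.78, 9.37 and 9.81 with Sage, against 9.59, 9.65 and 9.31 in the controls, so the groups overlapped. The log2 difference was 0.14 (95% confidence interval -0.26 to 0.53, adjusted p = 0.664 by limma). That interval overlaps the one of Pgant5 (0.41 to 0.96), and a difference between these genes was not tested. Its other probe set, 1631553_at, was below the array medians in both groups (4.50 with Sage and 4.37 in the controls) and differed by 0.13. The annotation used does not say which splice forms each probe set covers.

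Pgant7 encodes a transferase that prefers peptides already bearing GalNAc, and its gene is essential. It had the larger of the 2 negative differences among the 10 genes. Its log2 signals were 9.14, 9.56 and 9.32 with Sage, against 9.43, 9.98 and 10.14 in control replicates 1, 2 and 3, and Sage replicate 2 lay above control replicate 1. The log2 difference was -0.51 (SE 0.21, adjusted p = 0.201 by limma), and -0.41 by a second probe set (adjusted p = 0.371 by limma). Without control replicate 1 the first passed (-0.72, adjusted p = 0.0334 by limma).

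Pgant35A is essential too and is needed in embryonic tracheal cells for the apical surface and the barrier between cells. It had log2 signals of 7.74, 7.94 and 7.85 with Sage, against 7.64, 7.93 and 8.59 in the controls. Control replicate 3 alone stood above the Sage arrays by more than their spread. The log2 difference was -0.21 (95% confidence interval -0.81 to 0.39, adjusted p = 0.661 by limma), and it was -0.42 without control replicate 1 and 0.06 without control replicate 3. Tracheal genes, 6 measured of 8 listed, had medians of 11.10 to 11.19 with Sage, against 10.01 to 10.73 in the controls, and their part in the result was not tested.

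C1GalTA had log2 signals of 9.23, 9.34 and 9.28 with Sage, against 8.61, 8.92 and 9.63 in control replicates 1, 2 and 3. The Sage arrays lay within the range of the controls. The log2 difference was 0.23 (95% confidence interval -0.40 to 0.86, adjusted p = 0.647 by limma), and it depended on the control arrays. It was 0.01 without control replicate 1 (adjusted p = 0.983 by limma) and passed without control replicate 3 (0.52, adjusted p = 0.037 by limma). This probe set, too, has the suffix for probes that can match several transcripts.

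The controls spread further than the Sage arrays in 9 of the 10 genes, against 70.5% of all genes, with a median range of 0.22 log2 units with Sage and 0.85 in the controls. Over all genes the median range was 0.23 with Sage and 0.40 in the controls. In Pgant3, Pgant4 and Pgant8 control replicate 1 was highest and control replicate 3 lowest, as in the late cuticle list. In Pgant7, Pgant35A and C1GalTA control replicate 3 was highest and control replicate 1 lowest. Pgant5 and Pgant6 had neither order. For them control replicate 1 was the lowest of the controls, and the Sage mean exceeded control replicates 1, 2 and 3 by 0.88, 0.50 and 0.68 for Pgant5 and by 1.35, 0.98 and 1.12 for Pgant6. For late cuticle genes the median excess over the same 3 controls was 0.41, 2.50 and 4.67. For 9 measured salivary gland genes, of 11 listed, it was 0.97, 0.55 and 0.34, and for 9 hemocyte genes it was 0.46, 0.95 and 1.74. Muscle genes (4 measured of 8 listed) gave -0.10, 0.48 and 2.58, and neuronal genes (5 of 6) gave -0.12, -0.01 and 1.40. Within the salivary gland list the genes did not move together. Of 9 salivary gland genes 4 rose, against 5.6% of all genes, and log2 differences ran from -0.30 to 2.10, 3 of them negative. Of 9 hemocyte genes 3 rose, and log2 differences ran from -0.0002 to 1.61 with a median of 1.25. Of these 9, 3 were below all array medians in both groups, the gene with the lowest difference among them. None fell in either list, against 12.2% of all genes. The part of the differences between control arrays in the results for single transferases was not tested beyond leaving out each array.

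**Figure D2:**
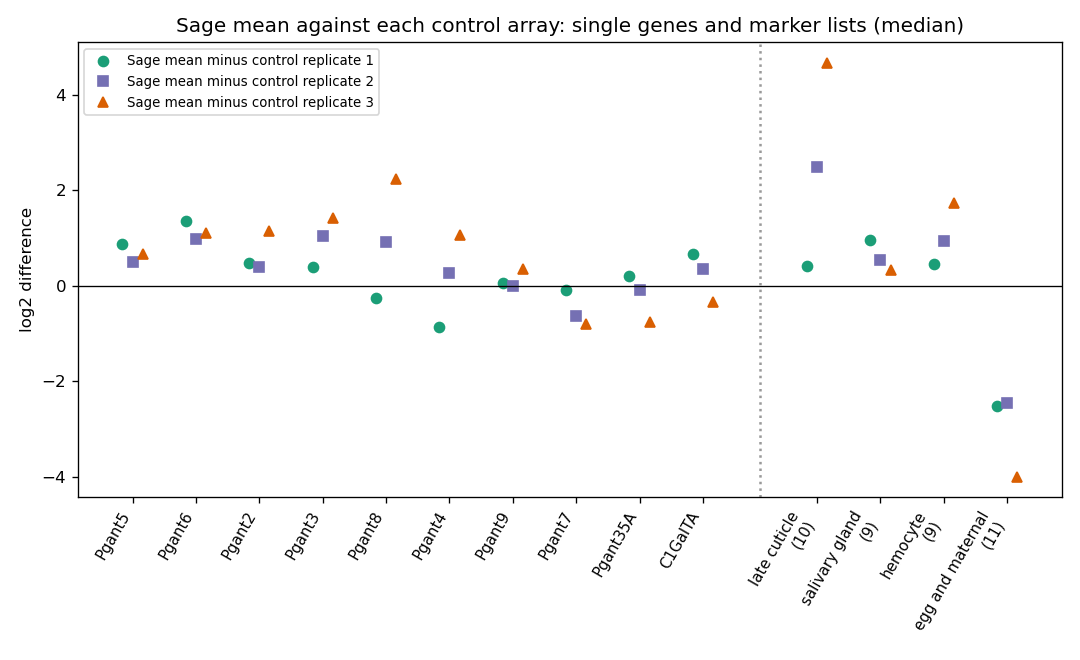
The y axis gives the log2 difference between the mean of the 3 Sage arrays and each control array, for the 10 genes (left of the dotted line) and for the medians of 4 marker lists (right, number of measured genes in brackets). Pgant5 and Pgant6 lie above 0 against all 3 controls, by 0.50 to 0.88 and 0.98 to 1.35, and the late cuticle list spreads from 0.41 to 4.67.

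The genes whose pattern over the 6 arrays was most like that of Pgant5 were Prx6c, a peroxiredoxin gene (Pearson's r = 0.996), and CG13931 (r = 0.994). For Pgant6 they were CG15118 (r = 0.998) and again CG13931 (r = 0.996). These values describe 6 points that share the difference between groups and the arrays. Among 3015 and 3014 genes with an SD of at least 0.5, 60 had an r over 0.95 with Pgant5 and 97 with Pgant6.

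Among 4 further GalNAc transferase genes, 1 rose. CG10000, named dppGalNAcT10 in the RefSeq synonyms, had log2 signals of 5.998, 5.74 and 5.83 with Sage, against 4.79, 4.73 and 4.60 in the controls. The Sage arrays were just above the array medians and the control arrays below them, so the fold is approximate. The log2 difference was 1.15 (SE 0.10, adjusted p = 0.00193 by limma). Pgant1, a peptide transferase gene, was well above the array medians in both groups (10.41 with Sage, 10.20 in the controls) and had a log2 difference of 0.21 (adjusted p = 0.425 by limma). Leaving out Sage replicate 2 gave 0.09. CG7304 and CG7579, which are the neighbours of Pgant8 on chromosome arm 3L with no protein-coding gene between them, were below the array medians in both groups (4.33 to 4.48) and differed by 0.04 and -0.06. The list of further transferases held 9 names, of which 5 matched no single RefSeq gene here and are not analysed here. Whether any of these 5 is another name of a measured gene was not checked. With the 9 transferases described above, 3 of 13 measured genes rose and none fell, against 5.6% and 12.2% of all genes.

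Of 10 genes related to C1GalTA or acting after it, 3 rose and none fell, with a median log2 difference of 0.19. Of all genes 5.6% were called higher and 12.2% lower. CG8708, with the synonym dC1GalT2, had log2 signals of 10.22, 10.73 and 10.40 with Sage, against 8.44, 8.19 and 6.89 in the controls. The lowest Sage array exceeded the highest control array by more than the spread within either group. Its log2 difference was 2.61 (SE 0.42), which is 6.10-fold. The adjusted p was 0.0118 by limma, and 0.0569 and 0.0585 without Sage replicates 2 and 3.

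CG3119 (dC1GalT7) had log2 signals of 7.23, 7.12 and 7.26 with Sage, against 6.35, 5.67 and 4.96 in the controls. Its 2 probe sets differed by 1.55 and 0.98 and both passed (adjusted p = 0.0343 and 0.0105 by limma). CG2975 (dC1GalT4) had log2 signals of 6.60, 6.46 and 6.88 with Sage, against 6.10, 5.55 and 5.30 in the controls. The log2 difference was 0.99 (adjusted p = 0.0406 by limma). Control replicate 3 was below the array medians for CG2975 and for the brighter CG3119 probe set, so these sizes are approximate. In CG8708, CG3119 and CG2975 control replicate 1 was highest and control replicate 3 lowest, as in the late cuticle list. The brighter CG3119 probe set did not pass without Sage replicate 1, 2 or 3 or control replicate 2 (adjusted p from 0.102 to 0.133 by limma), nor CG2975 without Sage replicate 1, 2 or 3 or control replicate 2 or 3 (from 0.0517 to 0.155). Both stand on arm 2L with 1 protein-coding gene between them, and 2 further relatives lie beside them. Of those, CG18558 is next to CG2975, and CG2983 follows after 2 more genes, and both were below the array medians with log2 differences of 0.04 and 0.07.

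The glucuronyltransferase genes of this list did not pass. GlcAT-P, which can cap T antigen with glucuronic acid, had a log2 difference of 0.63 (adjusted p = 0.139 by limma), GlcAT-S had -0.47 (adjusted p = 0.0687) and GlcAT-I, which builds the linker of proteoglycans, had -0.45 (adjusted p = 0.238). Without control replicate 3, GlcAT-P had 0.40 and GlcAT-I had -0.26.

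**Figure D3:**
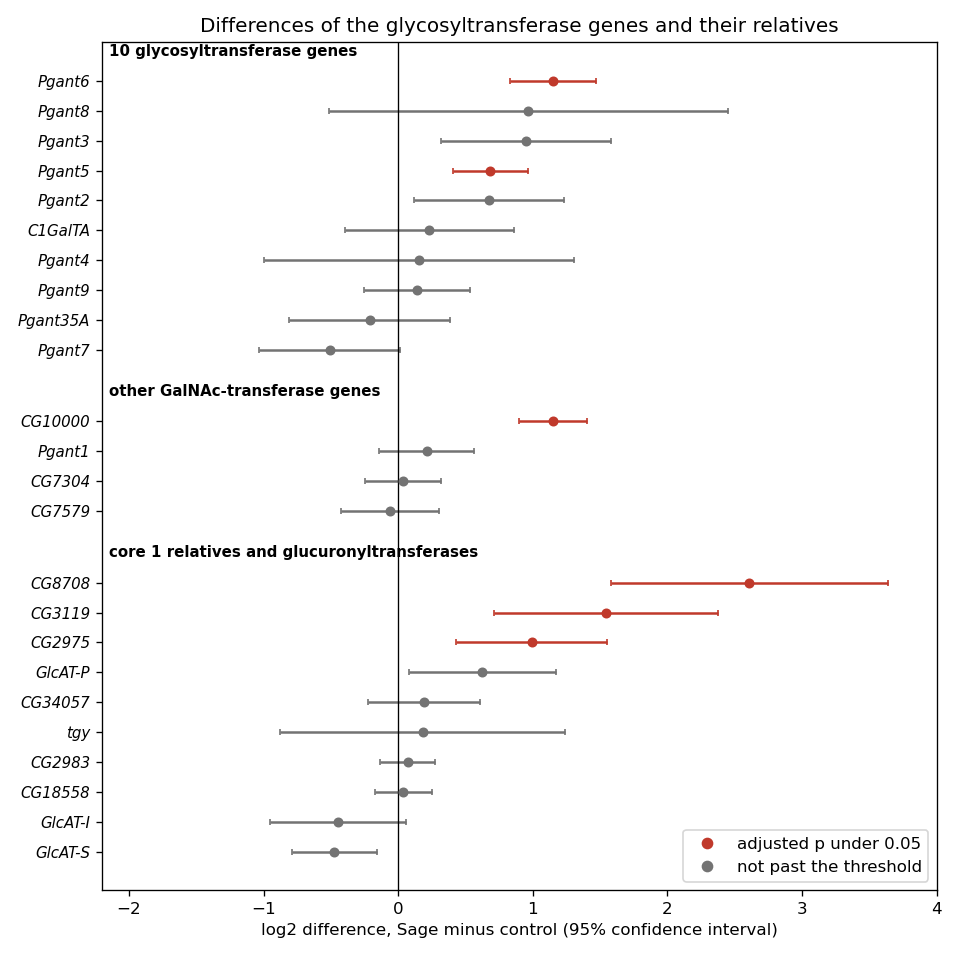
Points are log2 differences, Sage minus control, and bars are 95% confidence intervals from limma, for the 10 genes, the 4 other GalNAc transferase genes and the 10 genes related to C1GalTA or acting after it. Red marks an adjusted p under 0.05. Pgant6 has a difference of 1.15, and CG8708 has the largest shown at 2.61.

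All 10 measured genes for the supply and transport of sugar donors had positive differences (median 0.37), against 52.0% of all genes, and 1 rose, against 5.6%. Their signs were not all stable, since Galk and UGP turned to -0.03 without control replicate 3 and Ugalt to -0.10 without control replicate 1. A second probe set of Gnpnat, 1 of these 10 genes, was well above the array medians too (9.62 with Sage, 9.72 in the controls) and had a negative difference (-0.10). Gfat2, an enzyme gene for the first step of hexosamine synthesis, had a log2 difference of 0.48 (adjusted p = 0.0464 by limma), and lost its call whichever array was left out (adjusted p from 0.0586 to 0.13). Gfat1, for the same step, had the largest difference of this list, 1.61, but did not pass (adjusted p = 0.272 by limma). Its log2 signals of 11.86, 11.59 and 11.87 with Sage overlapped the 11.61, 10.55 and 8.31 of the controls. mmy, which encodes the enzyme that makes UDP-GlcNAc, had log2 signals of 10.37, 10.49 and 10.56 with Sage, against 9.90, 9.50 and 8.79 in the controls. The groups did not overlap and the difference was 1.08 (adjusted p = 0.0594 by limma). It passed without control replicate 1 (adjusted p = 0.0174) and without control replicate 3 (0.0193). Ugalt, the UDP-galactose and UDP-GalNAc transporter gene, differed by 0.04. This list also holds sll, whose product carries the sulfate donor PAPS and no sugar, at 0.35.

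Among 30 measured genes listed as mucins, glue proteins or other possible substrates, 2 rose and none fell (median 0.07). That share is near the 5.6% of all genes that were called higher. Of the 30, 16 were below all array medians in both groups. Eig71Ee, a mucin-like gene of the larval gland, and Sgs4, a glue gene, had log2 differences of 5.12 and 3.26 (adjusted p = 0.000144 and 0.00131 by limma). Their control signals were below the array medians (5.31 to 5.48 and 4.68 to 4.81), so these sizes are approximate. Sgs3, the mucin on which Pgant9 acts, was near 5 in both groups and differed by 0.02. Tig, the Tiggrin gene, had log2 signals of 11.25, 11.08 and 11.25 with Sage, against 10.50, 10.54 and 9.12 in the controls. Its groups did not overlap, and the difference was 1.14 (adjusted p = 0.128 by limma, or 0.00703 without control replicate 3, at a difference of 0.67). Tango1, protected by Pgant4, differed by 0.31 (adjusted p = 0.285). Muc91C had a difference of 2.46 with a control SD of 1.95 (adjusted p = 0.173), and passed without control replicate 1 (3.36, adjusted p = 0.0344), while without control replicate 3 it was 1.42 (adjusted p = 0.146).

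In 9 genes for other kinds of O-glycosylation, 4 fell and none rose, and all 4 had every Sage array below every control array. Over all genes 12.2% fell and 21.0% had every Sage array below. rumi, whose product puts glucose on Notch, had log2 signals of 6.68, 6.50 and 6.72 with Sage, against 8.75, 8.67 and 9.23 in the controls, and fell by 2.25 on the log2 scale (adjusted p = 0.0013 by limma). O-fut1, whose product puts fucose on Notch, fell by 1.52 (adjusted p = 0.00337). oxt, the xylosyltransferase gene that starts proteoglycan chains, fell by 0.61 (adjusted p = 0.0125), and missed the threshold without Sage replicate 1 or 2 (0.0538 and 0.0512). sxc, the O-GlcNAc transferase gene of nucleus and cytoplasm, fell by 0.52 (adjusted p = 0.0474), and lost its call whichever array was left out (0.0624 to 0.146). The median of this list was 0.02. Whether the mucin-type genes and these 9 differ as lists was not tested.

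**Figure D4:**
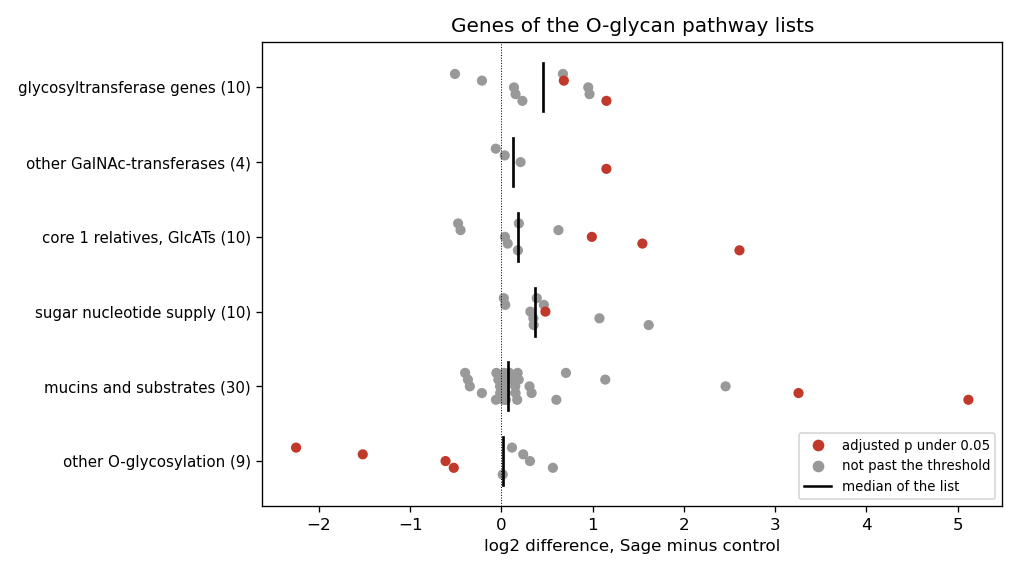
Each point is 1 gene by its brightest probe set, placed by its log2 difference, Sage minus control, in 6 lists with the number of measured genes in brackets. Red marks an adjusted p under 0.05 and black bars are list medians. Calls among the 10 glycosyltransferase genes and the first 4 pathway lists are all to the right of 0, and those of the other O-glycosylation list are all to the left.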

How the data were processed

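RNA was extracted from COPAS-sorted embryos and biotin-labelled by 3' in vitro transcription, per the labels' protocols. Each deposited value is the log2 signal of a probe set, made with RMA and Partek, per the submitters' processing notes, which give no version. RMA equalises arrays, so a change in total RNA cannot be seen, and compresses differences of dim probe sets. Of 18952 probe sets, 183 array controls were left out and 18769 were tested with no filter on signal. The platform annotation named 1 gene for 13647 of these, several for 402 and none for 4720. For 13544, symbols were updated through Entrez identifiers to RefSeq (Release 6). Coordinates are not printed since the sources used here give no build for the array.

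Sage minus control was tested with limma 3.58.1 (lmFit and eBayes, R 4.3.3), two-sided, without covariates, adjusted by Benjamini-Hochberg over all tested probe sets, at 0.05. A gene was represented by its brightest probe set (mean of the 6 arrays). An exact permutation test of 3 against 3 arrays cannot go below 0.1. The number of arrays and the spread among the controls limit the precision. On simulated data for this comparison (18769 probe sets, 200 changed), 31.3% of 1.5-fold, 58.2% of 2-fold and 84.8% of 4-fold changes were recovered, with 6 false calls among 122. The simulated noise was equally wide in both groups, unlike the data. Fewer probe sets were changed than the 797 higher and 1774 lower ones called here. These shares therefore need not hold for the data.

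The 10 genes, the 5 pathway lists, the 8 marker lists and the rule for named genes were chosen with earlier results of these data known. The text names all 10 genes, the sage gene, the pathway genes past the threshold, and the 2 genes most like each of the 10 that passed. Other genes of the pathway lists were named after their values were seen. As alternatives, the fit was repeated with the replicate number as a block, without each array in turn, without moderation, with array weights, with a robust or a trended prior, after quantile normalization or median centring, with dim probe sets dropped at a group mean of 6 or 7, and with 1 probe set per gene. The filters on dim probe sets kept a probe set if the mean of either group reached the bound. Gene-by-gene array weights were added after the data were seen, since the default method stopped before it converged. Same-numbered arrays of the 2 groups had deviations from their group means that correlated at -0.13, -0.07 and -0.25, so the numbers were not taken to pair samples.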

Additional observations from a re-analysis of the deposited data

How the results depend on the processing

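Of the 10 genes, 2 were higher in the reported test, 1 to 3 with an array left out, 6 with array weights and 4 with gene-by-gene array weights. Over all 18769 probe sets, 797 were higher in the reported test and 266 to 1276 with an array left out. With array weights 4869 of them were higher, and with gene-by-gene array weights 2243. None of the 10 was lower in the reported test, 0 to 1 with an array left out, and 1 with either kind of array weights (Pgant7). Over all probe sets, 1774 were lower in the reported test and 934 to 2035 with an array left out. With array weights 4922 of them were lower, and with gene-by-gene array weights 2771. Of 63 pathway genes, 7 were higher in the reported test, 4 with the replicate block, 3 to 8 with an array left out (4 without Sage replicate 2, 3 without Sage replicate 3 and 4 without control replicate 2), 25 with array weights, 15 with gene-by-gene array weights and 3 without moderation. Lower ones numbered 4 in the reported test, 2 to 3 with an array left out (2 without Sage replicate 1 or 2), 2 with a trended prior and 9 with array weights. Over all probe sets, 341 were higher with the replicate block and 353 without moderation, and 1594 were lower with a trended prior. Array weights gave control replicate 2 a weight of 32 and the method stopped before it converged. The replicate numbers are shared only as numbers. As a block they left both called genes of the 10, Pgant5 and Pgant6, past the threshold. With an array left out, the difference of Pgant4 ranged from -0.30 (without control replicate 3) to 0.67, and that of Pgant35A from -0.42 to 0.06 (0.056, without control replicate 3), none of them past the threshold. Fits with an array left out have fewer residual degrees of freedom, so calls can be lost with no change in the difference. The difference of Pgant6 lay between 0.93 and 1.24 and passed in all 17 alternatives, and that of Pgant5 lay between 0.49 and 0.78 and passed in 14 of 17. Filters on dim probe sets left out Pgant4 at a group mean of 6 or more and also Pgant8 at 7. Probe sets below the array medians, such as those of most mucins, limit what can be seen.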
